A study of Mus musculus with 17 samples.

Results

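A set of 10 genes described as miR-155 targets in blood cells, Il13ra1, Tab2, Ets1, Bach1, Tspan14, Inpp5d, Spi1, Cebpb, Jarid2 and Picalm, were followed by every array probe whose platform annotation gave one of these symbols. The rule found 14 probes for 9 of the 10 genes, among 45281 probes and 19057 annotated genes on the array. No probe listed under Picalm was used here. The genes are described targets of miR-155, and they were chosen with earlier results of these arrays known. All cells were bone marrow cells of C57Bl/6 mice, taken 4 days after 150 mg/kg of 5-fluorouracil, a drug that kills dividing cells. They spent 7 days in medium with Flt3 ligand, interleukin-11 and stem cell factor and were infected there with a retroviral MXW vector that also marks cells with green fluorescence. Viable marked cells were sorted on day 5 counted from the first infection. The promoter that drives each microRNA, the infected cell types and the number of vector copies per cell are not given in the sources used here. In dataset A, 2 arrays held cells with the miR-155 vector, 3 the vector of the microRNA cluster 99b/let-7e/125a and 3 the empty vector. In dataset B, 3 arrays held the cluster vector, 3 the vector of miR-125a alone and 3 the empty vector. The cells of every group, the empty-vector controls included, had thus been exposed to 5-fluorouracil, the cytokines and retroviral infection.

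MicroRNAs guide a protein complex to messenger RNAs that hold a match to the seed, the bases near the microRNA's 5′ end, and the bound messenger RNA is translated less and often degraded. miR-155 is induced in activated myeloid and lymphoid cells, and its forced expression in mouse marrow is known to cause a myeloproliferative disorder. Its described targets include a cytokine receptor chain, adaptors and a phosphatase of signalling pathways, and transcription factors that direct myeloid fate.

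The mature microRNAs of the vectors are shown because the cluster and miR-125a serve as controls for miR-155 only as far as their seeds differ. The sequences are those of RefSeq for mouse assembly GRCm38.p6, 5′ to 3′, with the seed (bases 2 to 8) in capitals.
mmu-miR-155-5p: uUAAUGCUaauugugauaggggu
mmu-miR-99b-5p: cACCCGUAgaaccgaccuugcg
mmu-let-7e-5p: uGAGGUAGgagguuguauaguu
mmu-miR-125a-5p: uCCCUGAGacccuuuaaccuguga
miR-155 lies on the plus strand of chromosome 16 (chr16:84714143-84714165), and the other 3 lie together on the plus strand of chromosome 17, from miR-99b at chr17:17830194-17830215 to miR-125a at chr17:17830817-17830840. The 4 seeds are all distinct. The seed of miR-155 has the same base at 1 of its positions as that of miR-99b, at 1 as that of let-7e and at 2 as that of miR-125a. The site complementary to the miR-155 seed reads AGCATTA in the DNA of a target. Whether the 3′ untranslated regions of these genes hold it was not analysed here, and the arrays were not used to measure the microRNAs themselves.

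The values are bead intensities, background-corrected, quantile-normalized within each dataset and given as log2, so that a difference of 1 is 2-fold. The share of probes detected on an array ran from 34.8% to 38.7% in dataset A and from 34.2% to 38.9% in dataset B, with miR-155 array 2 lowest in dataset A. The number of arrays limits the precision. All 7 marker genes of neutrophil primary granules were detected well enough to be tested in both datasets, against 10 of 13 of monocytes and macrophages, and 8 of 18 lymphoid ones in dataset A and 6 of 18 in dataset B. Cd79a and Pax5 of B cells and Cd4 and Cd8a of T cells were among those that did not reach the detection rule. Other lymphoid genes did reach it, among them Cd79b and Il7r in both datasets and Cd3d and Cd3e in dataset A only.

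A probe was tested where it was detected on at least 2 arrays of dataset A or 3 of dataset B. In dataset A this left 8 of the 14 probes, 1 for each of 8 genes, and in dataset B 9 probes of the same 8 genes. The others were both probes of Jarid2, a subunit that recruits Polycomb repressive complex 2, and 3 of the 4 probes of Ets1, together with the second Bach1 probe in dataset A. The Jarid2 probes ILMN_1225779 and ILMN_2597199 were detected on 0 of 8 arrays of dataset A and each on 1 of 9 arrays of dataset B. The Ets1 probes ILMN_1236290, ILMN_2481426 and ILMN_2770739 were detected on 0 of 8 and 0 of 9 arrays. These probes therefore say nothing of a change in Jarid2 or of other Ets1 transcripts.

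With miR-155, all 8 tested targets lay lower than with the empty vector and lower than with the cluster. Il13ra1, a chain of the interleukin-13 receptor, and Tab2, an adaptor of the kinase TAK1, fell against the empty vector, and Tspan14, a tetraspanin, fell against the cluster. The changes against the empty vector ran from 2.42-fold lower for Il13ra1 to 1.15-fold lower for Inpp5d, with a median of -0.81 on the log2 scale against 0.00 for all probes tested. Against the cluster they ran from 1.97-fold lower for Bach1 to 1.15-fold lower for Inpp5d, with a median of -0.63 against 0.00. In bulk cells, fewer cells of a type and less RNA per cell cannot be told apart.

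Against the empty vector, 2 of 8 targets fell at an adjusted p under 0.05 (limma, Benjamini-Hochberg over 19159 probes), where 0.512% of all probes did. Without adjustment, 7 of 8 had a p under 0.05 in the downward direction, against 4.6% of all probes. Both miR-155 arrays lay below all 3 empty-vector arrays for 8 of 8 targets, against 11.8% of all probes. Against the cluster, 1 of 8 fell at an adjusted p under 0.05 (0.491% of all probes), 6 of 8 had an unadjusted p under 0.05 (5.26%), and the arrays of 8 of 8 did not overlap (12.4%). Each of the 8 was lower on both miR-155 arrays than on all 6 other arrays of the dataset, which held for 5.45% of all probes. For Inpp5d this was close to a tie, with miR-155 array 1 at 7.3236 and cluster array 1 at 7.3242. These shares stand beside a list chosen for its link to miR-155 and carry no test of the list. Both comparisons share the miR-155 arrays and are not independent of each other.

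Array by array, the 8 targets lay between -1.43 and -0.18 from the empty-vector means on miR-155 array 1, with a median of -0.85, and between -1.12 and -0.22 on array 2, with a median of -0.77. On the 3 cluster arrays of dataset A the medians were -0.27, 0.02 and -0.02. On each cluster array at least 1 target lay above the empty-vector mean, and on neither miR-155 array did any.

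**Figure D1:**
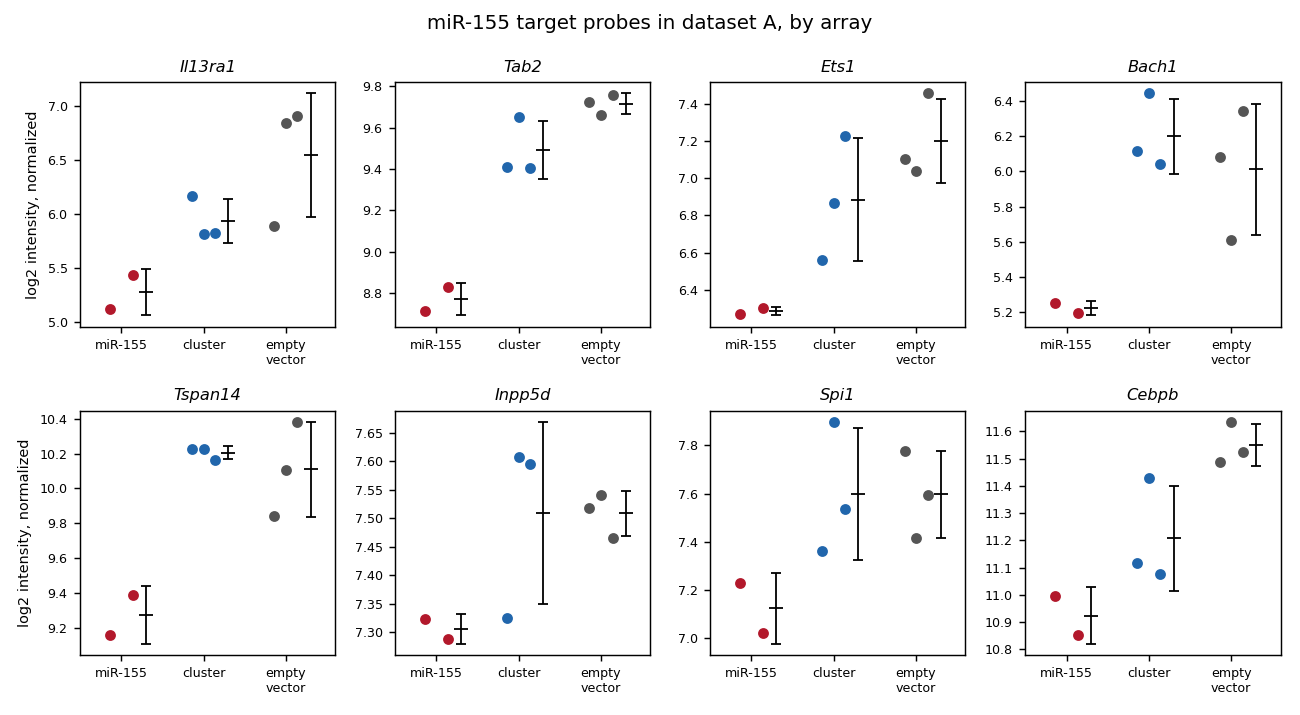
Normalized log2 intensity (y axis, a separate range in each panel) of the 8 tested miR-155 targets on each array of dataset A, with miR-155, the cluster and the empty vector from left to right. Points are arrays, and the bar beside them is the mean with 1 SD (n = 2, 3 and 3). In all 8 panels both miR-155 points lie below the 6 others, though for Inpp5d miR-155 array 1 is close to a tie with cluster array 1.

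Il13ra1 pairs with the interleukin-4 receptor alpha chain to signal for interleukin-13 and, outside lymphocytes, for interleukin-4. Its probe ILMN_2668696 read 5.12 and 5.43 on the miR-155 arrays, 6.17, 5.82 and 5.82 on the cluster arrays, and 5.89, 6.85 and 6.91 on the empty-vector arrays. The miR-155 arrays were the lowest, and one empty-vector array lay within the range of the cluster arrays. The deposited intensities, before any correction, were 110 and 97.5 with miR-155, 152, 128 and 123 with the cluster, and 149, 205 and 175 with the empty vector, all near the lower end of the scanner's range. The means were 5.28 ± 0.22 with miR-155 (SD, n = 2), 5.94 ± 0.20 with the cluster and 6.55 ± 0.57 with the empty vector (SD, n = 3 each). Il13ra1 fell with miR-155 against the empty vector by 1.27 on the log2 scale (SE 0.26, limma adjusted p = 0.025), the 42nd largest fall among all probes tested. Against the cluster the difference was -0.66 ± 0.26 (SE, limma adjusted p = 0.402).

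The call against the empty vector was lost without empty-vector arrays 2 (limma adjusted p = 0.0912) or 3 (0.146) and without miR-155 arrays 1 (0.156) or 2 (0.19). Without background correction the difference was -0.61 (limma adjusted p = 0.238), and the call was also lost with an offset of 50 (0.187), on the deposited log2 values (0.251, or 0.321 with a replicate block) and without the filter on dim probes (0.363).

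Tab2 links TRAF6 to the kinase TAK1 downstream of interleukin-1 and Toll-like receptors. Its probe ILMN_2679094 read 8.72 and 8.83 with miR-155, 9.41, 9.65 and 9.41 with the cluster, and 9.73, 9.66 and 9.76 with the empty vector. The miR-155 arrays were the lowest and lay apart from the others. All cluster arrays lay below all empty-vector arrays, but close to a tie. The unnumbered cluster array read 9.653 and empty-vector array 2 read 9.661. The deposited intensities were 527 and 336 with miR-155, 850, 864 and 723 with the cluster, and 1213, 978 and 894 with the empty vector. Tab2 averaged 8.77 ± 0.08 with miR-155 (SD, n = 2), 9.49 ± 0.14 with the cluster and 9.72 ± 0.05 with the empty vector (SD, n = 3 each). It fell with miR-155 against the empty vector by 0.94 on the log2 scale, or 1.92-fold (SE 0.18, limma adjusted p = 0.0157), and lay lower by -0.72 ± 0.18 than with the cluster (SE, limma adjusted p = 0.0924). The call against the empty vector was kept in all 11 alternatives of processing and lost without empty-vector arrays 1 (limma adjusted p = 0.0631) or 3 (0.0772) and without miR-155 arrays 1 (0.112) or 2 (0.232). The difference from the cluster passed the threshold without background correction (limma adjusted p = 0.0296), with an offset of 50 (0.0379), on the deposited log2 values (0.0295) and with a trended robust prior (0.0382).

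Tspan14 belongs to the tetraspanins that escort the membrane protease ADAM10 to the cell surface. Its probe ILMN_1257666 read 9.16 and 9.39 with miR-155, 10.23, 10.22 and 10.16 with the cluster, and 9.84, 10.11 and 10.38 with the empty vector. The cluster arrays lay inside the range of the empty-vector arrays, and both miR-155 arrays lay well under either. The deposited intensities were 687 and 462 with miR-155, against 1187 to 1409 with the cluster and 1294 to 1334 with the empty vector. Means were 9.28 ± 0.16 with miR-155 (SD, n = 2), 10.20 ± 0.04 with the cluster and 10.11 ± 0.27 with the empty vector (SD, n = 3 each). Tspan14 fell against the cluster by 0.93 on the log2 scale, or 1.9-fold (SE 0.20, limma adjusted p = 0.0406). The difference from the empty vector was -0.83 ± 0.20 (SE, limma adjusted p = 0.0686). It passed the threshold with 1 probe per gene (limma adjusted p = 0.0483) and with a trended robust prior (0.00842). It also passed under median scaling of the arrays (limma adjusted p = 0.0315), where the median of all probes lay below zero as well. The call against the cluster was lost under median scaling (limma adjusted p = 0.0511), on the deposited log2 values (0.0517, or 0.0806 with a replicate block), without the filter on dim probes (0.14) and with only the 2 groups fitted (0.0552). Leaving out any 1 of the 5 arrays compared ended it as well. The limma adjusted p was 0.0839 without cluster array 1, 0.118 without the unnumbered cluster array, 0.0875 without cluster array 3, and 0.185 and 0.235 without miR-155 arrays 1 and 2.

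Inpp5d, which encodes the phosphatase SHIP1 that removes a phosphate from the lipid product of PI3-kinase, is among the best-studied miR-155 targets in myeloid cells, and it showed the smallest difference of the 8. Its probe ILMN_2959191 read 7.32 and 7.29 with miR-155, 7.32, 7.61 and 7.60 with the cluster, and 7.52, 7.54 and 7.47 with the empty vector. The miR-155 arrays were the lowest, with one cluster array next to them. The difference was -0.20 ± 0.18 from the empty vector (SE, limma adjusted p = 0.859) and -0.20 ± 0.18 from the cluster (SE, 0.814). The 95% interval against the empty vector ran from -0.59 to 0.18, which leaves room for a modest fall as well as for none.

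Among the transcription factors, Ets1, the founding member of the ETS family, was measured by 1 of its 4 probes. ILMN_3157483 read 6.27 and 6.30 with miR-155, 6.56, 6.87 and 7.23 with the cluster, and 7.11, 7.04 and 7.46 with the empty vector. The miR-155 arrays agreed closely and were the lowest, while the cluster and empty-vector arrays overlapped. The difference from the empty vector was -0.92 ± 0.21 (SE, limma adjusted p = 0.0634). It passed the threshold with 1 probe per gene (limma adjusted p = 0.047), with only the 2 groups fitted (0.0421) and with a trended robust prior (0.0484). It also passed under median scaling (limma adjusted p = 0.0386), where the median of all probes lay below zero as well. From the cluster it was -0.60 ± 0.21 (SE, limma adjusted p = 0.334).

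Bach1 encodes a haem-binding repressor of the haem oxygenase gene and of antioxidant genes. Its brighter probe ILMN_2741677 read 5.25 and 5.19 with miR-155, 6.11, 6.44 and 6.04 with the cluster, and 6.08, 5.61 and 6.34 with the empty vector. Both miR-155 arrays were the lowest, and empty-vector array 2 lay below all cluster arrays. The difference was -0.79 ± 0.22 from the empty vector (SE, limma adjusted p = 0.158) and -0.98 ± 0.22 from the cluster (SE, limma adjusted p = 0.0518), the largest of the 8 in that comparison. With 1 probe per gene the comparison with the cluster passed the threshold (limma adjusted p = 0.0424), as it did with a trended robust prior (0.0463). The second Bach1 probe, ILMN_1238701, was detected on 0 of 8 arrays of dataset A.

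Spi1 encodes PU.1, a factor required for macrophage and neutrophil development, and Cebpb encodes C/EBP-beta, which drives granulocyte production under stress and inflammatory genes. For Spi1, ILMN_1235139 read 7.23 and 7.02 with miR-155, 7.36, 7.90 and 7.53 with the cluster, and 7.78, 7.42 and 7.60 with the empty vector. The difference was -0.47 ± 0.20 from the empty vector (SE, limma adjusted p = 0.545) and -0.47 ± 0.20 from the cluster (SE, limma adjusted p = 0.477). The cluster and empty-vector arrays of Spi1 overlapped, and the gap between them and miR-155 was smaller than the spread of the cluster arrays. For Cebpb, ILMN_2756435 read 10.997 and 10.85 with miR-155, 11.12, 11.43 and 11.08 with the cluster, and 11.49, 11.64 and 11.52 with the empty vector. Its cluster arrays lay between those of miR-155 and of the empty vector. The difference was -0.63 ± 0.19 from the empty vector (SE, limma adjusted p = 0.224) and -0.28 ± 0.19 from the cluster (SE, 0.719).

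**Figure D2:**
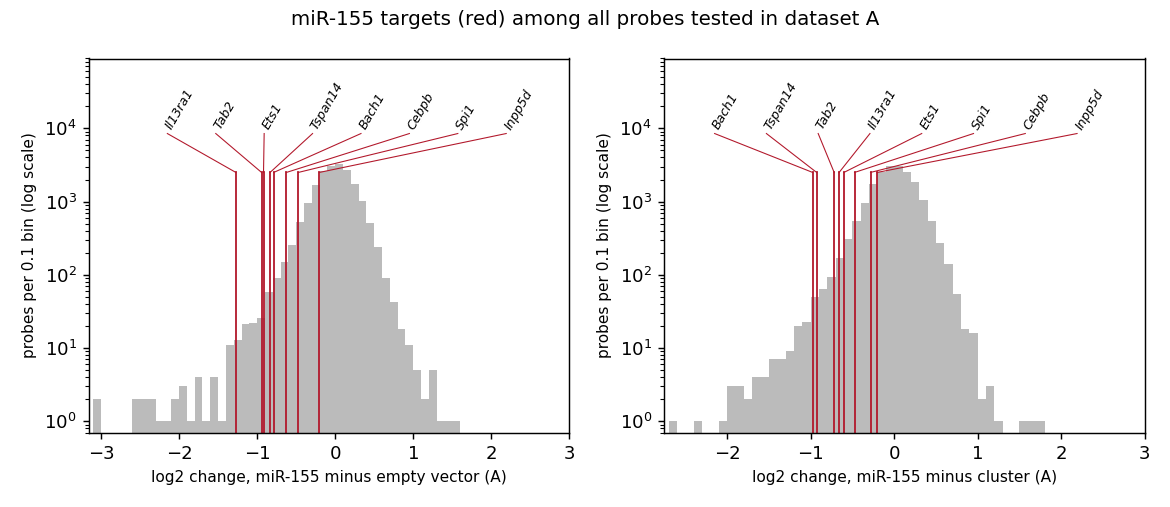
Number of probes (y axis, log scale) by log2 change in bins of 0.1 (x axis) for miR-155 minus the empty vector on the left and miR-155 minus the cluster on the right, over all 19159 probes tested in dataset A. Red lines mark the 8 targets, which all lie below 0, from -1.27 to -0.20 on the left and from -0.98 to -0.20 on the right.

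Over the whole array, 98 probes fell and 20 rose with miR-155 against the empty vector (limma, 1526 at an unadjusted p under 0.05), and 94 fell and 13 rose against the cluster. With the arrays scaled to a common median instead, 87 and 34 probes fell and 0 rose in either comparison, while the median of all probes itself moved to -0.28 and -0.20. The totals rest heavily on miR-155 array 2, without which 28 and 26 probes were called. Against the empty vector they were also 66 without empty-vector array 1 and 56 without array 3, and against the cluster 62 without the unnumbered cluster array and 66 without cluster array 3. In the order of all falls, Il13ra1, Tab2, Ets1 and Tspan14 stood at places 42, 110, 114 and 149 against the empty vector, and Bach1 and Tspan14 at 95 and 115 against the cluster.

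The cluster, whose microRNAs have other seeds, served as the first control. In dataset A, 0 of 8 targets were called lower with the cluster than with the empty vector (0.198% of all probes), and 4 of 8 lay below zero. Its arrays lay below all empty-vector arrays for Tab2 and Cebpb, 2 of 8 against 6.09% of all probes, though for Tab2 this was close to a tie. The difference was -0.22 ± 0.16 for Tab2 (SE, limma adjusted p = 0.918) and -0.34 ± 0.17 for Cebpb (SE, 0.744). Il13ra1 had the largest difference, -0.61 ± 0.23 (SE, limma adjusted p = 0.53), which is close to its further difference between miR-155 and the cluster. Bach1 and Tspan14 stood at 0.19 ± 0.20 and 0.09 ± 0.18 (SE), and Inpp5d and Spi1 at 0.00 each, with 95% intervals from -0.34 to 0.34 and from -0.38 to 0.39.

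In dataset B, again 0 of 9 target probes were called lower with the cluster than with the empty vector, as 0.00571% of all 17524 probes did. Of the 9 probes 8 lay below zero, against 48.4% of all probes, with a median of -0.03. The arrays did not overlap for 1 of 9 probes, that of Il13ra1, against 6.25% of all probes. Il13ra1 read 5.02, 5.35 and 4.60 with the cluster, 4.89, 5.78 and 5.27 with miR-125a, and 6.02, 5.50 and 5.63 with the empty vector. All cluster arrays lay below all empty-vector arrays, the miR-125a arrays overlapped both groups, and the probe was not detected on cluster array 6. The difference with the cluster was -0.73 ± 0.25 (SE, limma adjusted p = 0.429), in the same direction and of about the size seen in dataset A. Over the whole array 1 probe was called, and 0 without empty-vector arrays 4 or 6 or without any 1 of the cluster arrays (limma, 1578 at an unadjusted p under 0.05).

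The other targets in dataset B lay close to the empty vector. Tab2 read 8.53, 8.68 and 8.24 with the cluster, 8.60, 8.54 and 8.55 with miR-125a, and 8.63, 8.54 and 8.55 with the empty vector. Tspan14 read 9.29, 9.55 and 9.45 with the cluster, 9.29, 9.72 and 9.62 with miR-125a, and 9.27, 9.44 and 9.42 with the empty vector. Both overlapped between all groups. With the cluster the differences were -0.09 ± 0.13 for Tab2, with a 95% interval from -0.38 to 0.20, and 0.05 ± 0.14 for Tspan14 (SE), from -0.26 to 0.37. Both intervals lie above the changes of -0.94 and -0.83 measured with miR-155 in dataset A, which were normalized apart from dataset B. Those changes had 95% intervals of their own, from -1.33 to -0.56 and from -1.25 to -0.42. The difference between the datasets, tested below, was not called for either gene.

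With miR-125a, 0 of 9 target probes fell and 0 of 9 were lower on every array than all empty-vector arrays, where 0% and 5.94% of all probes were (limma, 0 probes called in either direction, 1663 at an unadjusted p under 0.05). Of the 9 differences 7 lay below zero, against 46.9% of all probes, with a median of -0.08. They ran from -0.40 ± 0.25 for Il13ra1 (SE, limma adjusted p = 0.64) to 0.17 ± 0.14 for Tspan14 (SE, 0.747). Tab2 differed by -0.01 ± 0.13 (SE), with a 95% interval from -0.30 to 0.28. For Tspan14 the miR-125a arrays would be called higher under median scaling (difference 0.73, limma adjusted p = 0.0419), where the median of all probes rose by 0.42.

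The brighter Bach1 probe lay at -0.28 ± 0.18 with the cluster and -0.37 ± 0.18 with miR-125a (SE, limma adjusted p = 0.708 and 0.554). The second Bach1 probe, detected on 3 of 9 arrays of dataset B and tested there, lay at -0.03 ± 0.21 and -0.04 ± 0.21 (SE), with readings from 4.34 to 5.10 over all 9 arrays, near the level of undetected probes. Ets1 differed by -0.02 ± 0.27 with the cluster and 0.08 ± 0.27 with miR-125a (SE). For Ets1, array 5 of the cluster, array 2 of miR-125a and array 5 of the empty vector read high, at 6.48, 6.46 and 6.29, while the other 6 arrays lay between 5.61 and 5.91. Inpp5d stood at -0.01 ± 0.16 with the cluster and -0.26 ± 0.16 with miR-125a (SE). The value with miR-125a was as far below zero as its difference with miR-155 in dataset A. Spi1 stood at 0.00 ± 0.15 and -0.15 ± 0.15, and Cebpb at -0.23 ± 0.15 and -0.08 ± 0.15 (SE). The comparisons of the cluster and of miR-125a share the same 3 empty-vector arrays.

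**Figure D3:**
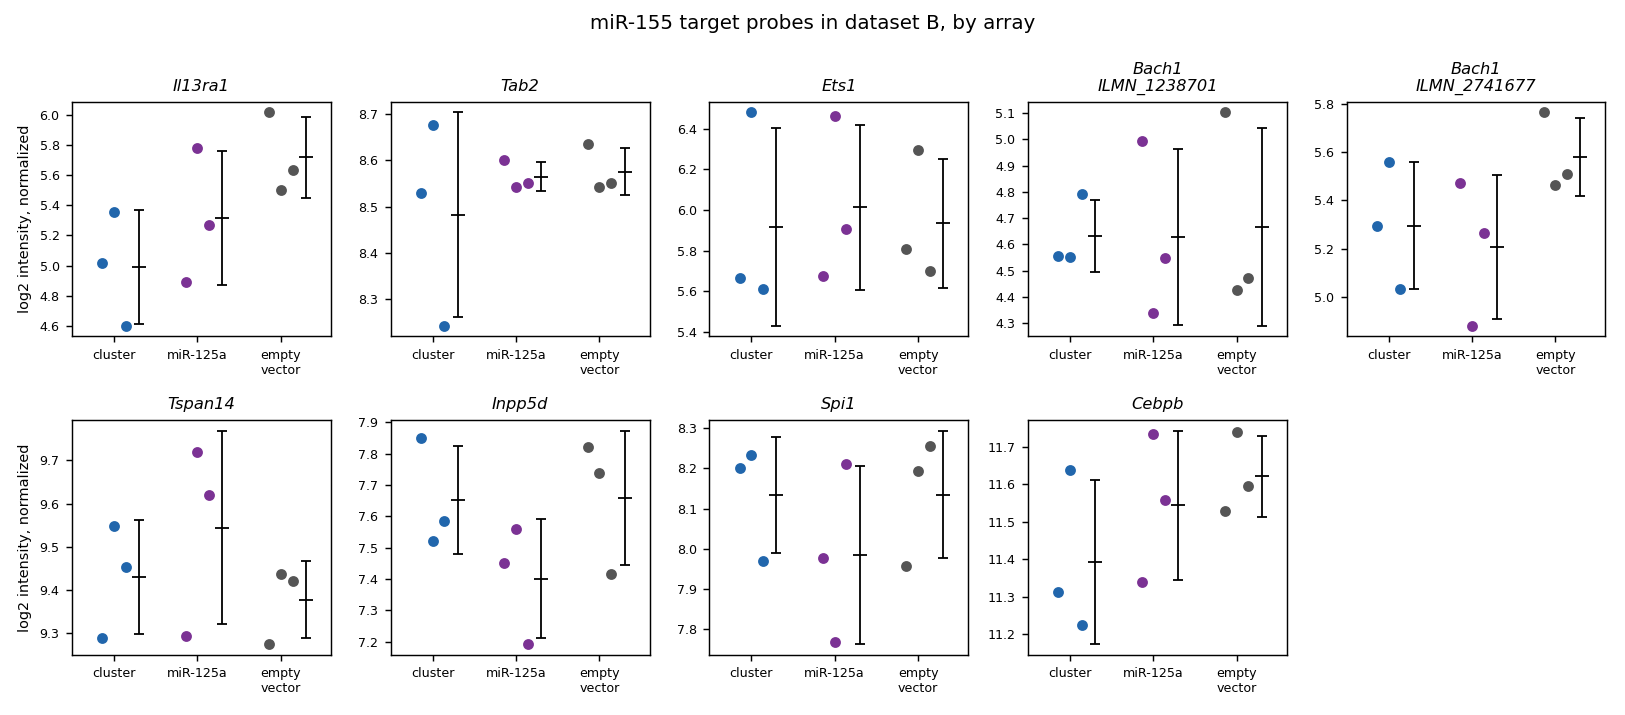
Normalized log2 intensity (y axis, a separate range in each panel) of the 9 target probes tested in dataset B, with the cluster, miR-125a and the empty vector from left to right. Points are arrays and bars the mean with 1 SD (n = 3 each). The groups overlap in every panel except for the cluster and the empty vector of Il13ra1.

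**Figure D4:**
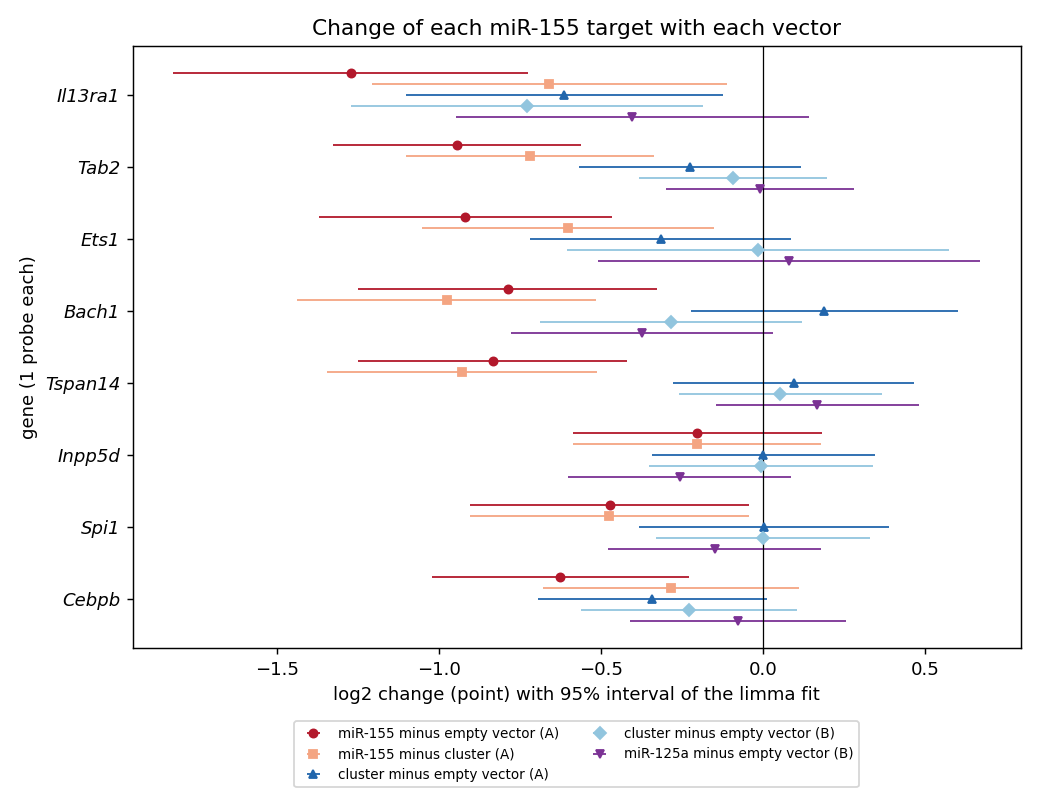
Log2 change of each target (x axis, point with the 95% interval of the limma fit) in the 5 comparisons, with 1 probe per gene on the y axis. For Tab2, Ets1, Bach1, Tspan14 and Spi1 both miR-155 intervals lie below 0 and the cluster and miR-125a intervals include 0. For Il13ra1 both cluster intervals lie below 0 as well.

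Whether the change with miR-155 in dataset A differed from that with a control vector in dataset B was tested as a difference of differences over all 17 arrays, normalized together, for 16240 probes. Against the cluster of dataset B, 0 of 8 targets passed (0.08% of all probes fell), and 3 of 8 had an unadjusted p under 0.05, against 5.05% of all probes. Against miR-125a, 0 of 8 passed (0.0924%) and 4 of 8 had an unadjusted p under 0.05, against 5.55%. Tab2 had the smallest p of the 8 in both, with differences of -0.88 ± 0.20 (SE, limma adjusted p = 0.146) and -0.96 ± 0.20 (SE, 0.109). Without background correction both passed, at -0.77 (limma adjusted p = 0.0176) and -0.84 (0.0132). Tspan14 followed with -0.91 ± 0.23 (SE, limma adjusted p = 0.194) and -1.02 ± 0.23 (SE, 0.143).

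For the other 6 genes these differences ran from -0.86 ± 0.37 for Ets1 to -0.19 ± 0.23 for Inpp5d against the cluster, and from -0.97 ± 0.37 for Ets1 to 0.06 ± 0.23 for Inpp5d against miR-125a (SE). Il13ra1 stood at -0.47 ± 0.39 (SE, limma adjusted p = 0.788) and -0.80 ± 0.39 (SE, 0.53). Over the whole array 15 and 16 probes were called. Without miR-155 array 2 the numbers were 1 and 0, and against miR-125a they lay between 4 and 7 without any 1 of the empty-vector arrays 1, 2, 3, 4 and 5 or miR-125a array 2. The change with the cluster itself differed between datasets for 0 of 8 targets and 0% of all probes (limma, 820 at an unadjusted p under 0.05), from -0.29 ± 0.35 for Ets1 to 0.47 ± 0.28 for Bach1 (SE).

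Beyond these genes, 42 others named as miR-155 targets in the literature were examined, of which 32 were tested in dataset A by their brightest probe. With miR-155 against the empty vector, 1 of 32 fell, 0 rose and 22 lay below zero, with a median of -0.24 and 9 at an unadjusted p under 0.05 in the downward direction. Over all probes tested, 0.512% fell and 4.6% had such an unadjusted p. The 1 gene was Smad5, a mediator of bone morphogenetic protein signals, whose probe ILMN_3155789 read 5.89 and 5.46 with miR-155, 7.00, 6.76 and 6.97 with the cluster, and 6.89, 6.76 and 6.66 with the empty vector. Both miR-155 arrays lay far below all others. It fell by 1.09 (SE 0.19, limma adjusted p = 0.00996) against the empty vector and fell by 1.23 (SE 0.19, 0.00359) against the cluster. The other Smad5 probe did not share this, at 0.03 and -0.02 (limma adjusted p = 0.986 and 0.99). The call was lost without miR-155 array 2 in both comparisons (limma adjusted p = 0.344 against the empty vector and 0.17 against the cluster), and without empty-vector array 1 (0.0535). Rheb, the activator of the kinase mTOR, lay at -0.60 and -0.75 from the empty vector and the cluster (limma adjusted p = 0.243 and 0.0802), and Csf1r, the macrophage growth factor receptor, at -0.68 and -0.67 (0.134 and 0.142). In dataset B, 0 of 29 were called with either vector, with medians of 0.00 for the cluster and 0.05 for miR-125a.

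Most tested partners and downstream genes of the 10 targets were not called with miR-155 against the empty vector. Of all 19159 probes tested, 118 were called, so 0 called in lists this small says little about these genes. In the interleukin-4 and interleukin-13 receptor pathway 0 of 4 tested genes were called, with Il4ra, the partner chain of Il13ra1, at -0.43 ± 0.20 (SE, limma adjusted p = 0.613). In the TAK1 complex 0 of 7 were called, with a median of -0.04 and the largest differences at Tab3, the paralogue of Tab2, and Map3k7, which encodes TAK1 itself (-0.31 ± 0.22 and -0.25 ± 0.24, SE). The ETS family (0 of 6), the partners of BACH1 (0 of 3), the TspanC8 tetraspanins with ADAM10 (0 of 2), inositol phosphate signalling (0 of 9), the C/EBP family (0 of 5), Polycomb repressive complex 2 (0 of 9) and clathrin endocytosis (0 of 11) had medians between -0.35 and 0.08. The largest difference in these lists was that of Dok2, an adaptor that restrains signalling in blood cells, at 0.63 ± 0.21 (SE, limma adjusted p = 0.312). Both tested genes of the tetraspanin list lay below zero, Tspan17 at -0.41 ± 0.20 and Adam10, the protease itself, at -0.28 ± 0.20 (SE). Of the genes that BACH1 represses, 0 of 11 were called and 9 of 11 lay below zero, with a median of -0.19. Slc40a1, the iron exporter ferroportin, differed by -0.69 ± 0.24 and Blvrb, a biliverdin reductase, by -0.53 ± 0.21 (SE, limma adjusted p = 0.353 and 0.49), with Hmox1, haem oxygenase, at -0.38 (limma adjusted p = 0.704).

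Of 21 tested target genes of PU.1, 1 fell, where 0.512% of all probes did, with a median of -0.25. It was Itgam, the CD11b integrin chain of myeloid cells, at -0.96 ± 0.20 (SE, limma adjusted p = 0.031), and the call was lost without any 1 of the 5 arrays compared (0.073 to 0.228). Of 7 tested target genes of C/EBP-beta, 3 fell and 1 rose, with a median of -0.53. Over all 19159 probes tested, 0.512% fell and 20 probes rose. Chil3, a chitinase-like protein of myeloid cells, fell by 2.01 (SE 0.23, limma adjusted p = 0.000118) and kept the call without any 1 array. Saa3, an acute-phase protein, and Il1b, interleukin-1 beta, differed by -1.15 and -1.13 (limma adjusted p = 0.0189 and 0.0204), and Ccl3, a chemokine, rose by 1.11 (0.0405). Saa3 lost its call without empty-vector arrays 1 (limma adjusted p = 0.0924) or 2 (0.0619) or miR-155 array 2 (0.581), and Il1b without empty-vector arrays 2 (0.0876) or 3 (0.113) or either miR-155 array (0.0646 and 0.376). Ccl3 lost it without empty-vector arrays 1 (0.107) or 2 (0.144) or either miR-155 array (0.125 and 0.433).

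Against the cluster, Smad5 and Chil3 were the only genes called in these 13 lists. Chil3 fell by 1.20 (SE 0.23, limma adjusted p = 0.0185) by its probe ILMN_3117876. Without miR-155 array 2 it differed by -0.78, and without the unnumbered cluster array it differed by -1.20 (limma adjusted p = 0.0635). Of its 3 tested probes, ILMN_2712986 was also called (-1.07, limma adjusted p = 0.0116) and ILMN_3043036 was not (-1.19, 0.0694). Chil3 was also lower with the cluster, at 10.36, 10.22 and 10.10, than with the empty vector, at 11.24, 11.07 and 10.81.

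**Figure D5:**
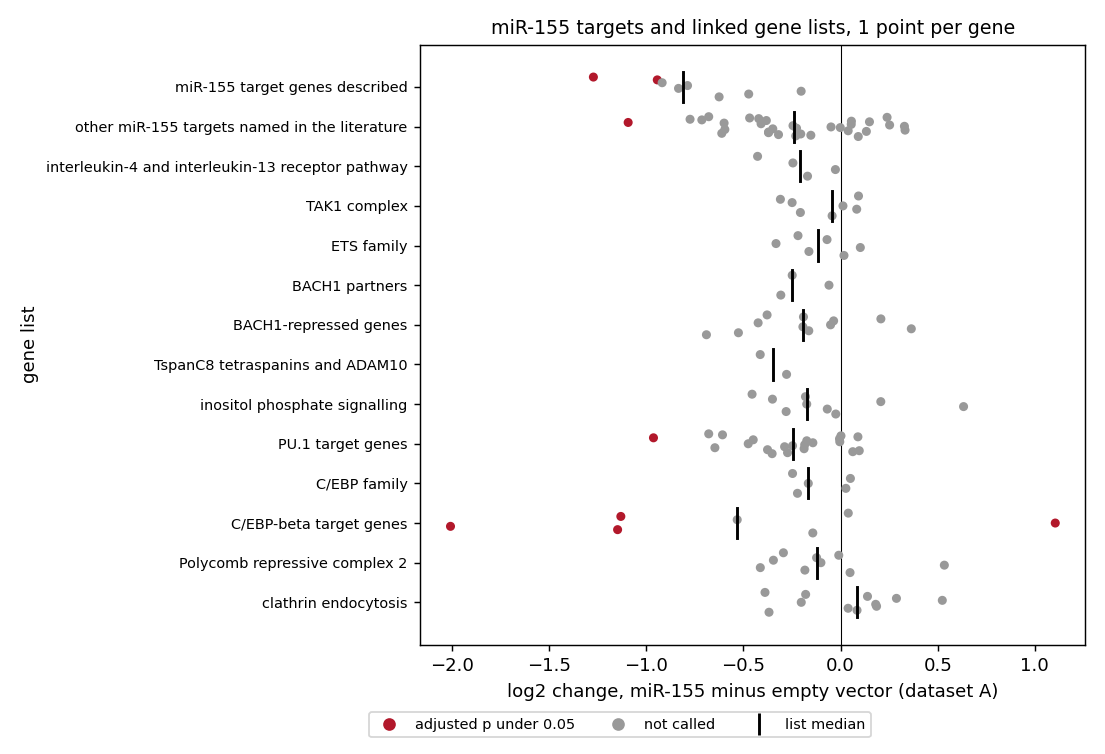
Log2 change with miR-155 against the empty vector in dataset A (x axis) for each tested gene of the miR-155 target set and of 13 linked lists (y axis), 1 point per gene. Red points were called and black bars are list medians, which lie at -0.81 for the target set and between -0.53 and 0.08 for the linked lists.

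Markers of cell types moved with miR-155 as well. Of 13 tested neutrophil maturation genes 4 fell against the empty vector, where 0.512% of all probes did, with a median of -0.53 (limma). They were the granule proteins Ltf, Camp and Ngp and the integrin chain Itgb2l. The same 4 fell with the cluster in dataset A, where 0.198% of all probes did. The summed level of the 13, as normalized intensity, ran from 32918 to 34753 with miR-155, 29407 to 34437 with the cluster and 39655 to 46653 with the empty vector. Of 10 tested monocyte and macrophage genes 0 were called and 9 lay below zero, with a median of -0.56, and their sum ran from 1311 to 1567 with miR-155, 1693 to 2049 with the cluster and 1862 to 2191 with the empty vector. The miR-155 arrays were thus the lowest in the monocyte sum, as they were for the targets. This sum is not separate from miR-155 targets, since it holds Csf1r, one of the other targets named in the literature. Csf1r read 8.51 and 8.47 with miR-155, and 9.02, 9.28 and 9.22 with the empty vector. Of 5 tested dendritic cell and MHC class II genes 0 were called against the empty vector and 5 lay below zero, with a median of -0.60 and sums of 442 to 454 with miR-155, 741 to 854 with the cluster and 662 to 782 with the empty vector.

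The part of these cell types in the changes of the targets was not tested. Sums of neutrophil primary granule genes ran from 72667 to 72932 with miR-155, 75081 to 86029 with the cluster and 82575 to 83536 with the empty vector, with 0 of 7 genes called. The mast cell and basophil list had 1 of 9 lower (Fcer1a, -1.04), against 0.512% of all probes. The erythroid sum was higher with miR-155, at 2052 to 2384, against 1243 to 1789 with the cluster and 1411 to 1877 with the empty vector. Of the erythroid genes, 1 of 6 was called higher (Car2, 1.13), as were 20 of all 19159 probes, and 3 of 6 lay below zero. The eosinophil, lymphoid, megakaryocyte, primitive progenitor and stroma lists had 0 called.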

How the data were processed

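RNA of 17 samples was read on single-colour Illumina BeadChips of 45281 probes. The deposited intensities are mean bead signals per probe, for which the submitters' processing notes name GenomeStudio without a version, with no background subtraction or normalization seen in the values. The deposited detection p-values, per the file headers, set each probe against the negative control beads of its array. The authors also deposited log2 values with medians near 6.47 in dataset A and 6.80 in dataset B, which behave as quantile-normalized intensities without background correction. No source used here says how they were made, and they entered an alternative setting.

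From the intensities, limma 3.58.1 in R 4.3.3 (data.table version 1.17.8) gave normexp background-corrected values (control beads inferred from the detection p-values, offset 16), quantile-normalized within each dataset and taken as log2. The offset understates the changes of dim probes. A probe was tested where its detection p-value was under 0.05 on at least 2 arrays of dataset A or 3 of dataset B, which left 19159 and 17524 probes, and 16240 in both. Probes were fitted with lmFit and eBayes on the group means of a dataset, called at a Benjamini-Hochberg adjusted p under 0.05 over all probes tested, and were not averaged per gene. The fit was tested on simulated arrays with known changes. The precision is limited by the number of arrays.

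Groups follow the sample titles. The design text speaks of triplicates, while 2 miR-155 arrays were analysed here. Nothing says that the arrays of a group came from separate mice or cultures, so p-values measure the spread between these samples, which may be technical. Among the intensities, the header of cluster array 1 of dataset A stands on 2 columns, and the second was used as a cluster array with no number. Of 136 pairs of arrays, 0 held identical values. In dataset B the cluster and empty-vector arrays share the numbers 4 to 6, and arrays of one number deviated together from their group means (r = 0.11, 0.16 and 0.16 across probes), so a fit with the number as a block was run as an alternative.

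Gene symbols came from the platform annotation, which gave 1 symbol for 34885 probes, several for 18 and none for 10378. The gene identifiers of 34807 probes were found in the RefSeq list of GRCm38.p6, and 0 symbols changed. The target genes and gene lists were chosen with earlier results of these data known. All target genes were named. From each linked list the text names up to 4 called probes of smallest p, or else up to 2 of largest change. Rheb, Csf1r, Hmox1, Fcer1a, Car2 and the 4 neutrophil maturation genes were named after their values were seen where this rule did not name them.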

Additional observations from a re-analysis of the deposited data

How the results depend on the processing

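All 8 tested targets lay below zero in 16 of 16 alternatives for miR-155 against the empty vector and in 16 of 16 against the cluster, with medians from -1.17 to -0.48 and from -0.88 to -0.32. For the difference from the cluster effect of dataset B this held in 15 of 15, and for that from the miR-125a effect in 2 of 15, with 7 or 8 below zero. With the cluster, between 4 and 7 of 8 lay below zero in dataset A and between 3 and 8 of 9 in dataset B, and with miR-125a between 3 and 8 of 9. No value changed sign while called. Detection p-values under 0.01, array weights and normalizing each dataset on its own for the differences between datasets kept every count of calls within 1.5 times. The cause of the other shifts was not tested.

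Under median scaling, the median of all probes itself lay below zero in both miR-155 comparisons. Counts of called probes changed as follows. Against 118 for miR-155 over the empty vector, there were 78 without background correction, 34 without the filter on dim probes and between 28 and 115 with 1 array left out. Target probes called there numbered 2, against 1 without background correction, with an offset of 50, on the deposited log2 values or without the filter, 4 under median scaling or with 1 probe per gene, 5 with a trended robust prior, and 0 to 1 with 1 array left out. Against 107 for miR-155 over the cluster, there were 64 without background correction, 34 under median scaling, 54 on the deposited log2 values, 30 without the filter, 70 with only the 2 groups fitted, 163 with a trended robust prior and 26 to 94 with 1 array left out. Target probes called there numbered 1, against 2 without background correction, with an offset of 50 or with 1 probe per gene, 3 with a trended robust prior, 0 under median scaling, without the filter or with only the 2 groups fitted, and 0 whichever array was left out.

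For the cluster over the empty vector, dataset A had 73 calls, 35 of them higher, against 44 without background correction, 17 under median scaling (6 higher), 47 on the deposited log2 values, 13 without the filter and 38 to 68 with 1 array left out. Dataset B had 1, against 10 without background correction, 7 with an offset of 50, 79 under median scaling (75 higher), 7 on the deposited log2 values, 0 with only the 2 groups fitted, 26 with a trended robust prior and 0 to 1 with 1 array left out. For miR-125a the count was 0, against 6 without background correction, 7 with an offset of 50, 2312 under median scaling (2307 higher, and 1 target probe, that of Tspan14), 6 on the deposited log2 values, 15 with a trended robust prior and 0 with any 1 array left out. Median scaling moved the median of all probes by 0.28 for the cluster and 0.42 for miR-125a in dataset B.

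For the difference between the miR-155 effect and the cluster effect of dataset B, 15 probes and 0 target probes were called, against 32 and 1 without background correction, 33 and 1 on the deposited log2 values, and 1 to 17 and 0 with 1 array left out. For that between miR-155 and miR-125a it was 16 and 0, against 27 and 2 without background correction, 25 and 1 on the deposited log2 values, 1 target probe without the filter, and 0 to 20 and 0 with 1 array left out.

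With the replicate number as a block, 0 probes and 0 targets were called for the cluster over the empty vector in dataset B, and no target call changed. In dataset A the arrays of one number deviated together in some pairs only, with correlations from -0.16 to 0.37 on the deposited log2 values. The highest, 0.31 and 0.37, were above those of dataset B (0.11, 0.16 and 0.16). The block, run on the deposited log2 values whose columns all carry a number, gave 55 called probes and 1 target probe for miR-155 over the empty vector. It gave 45 and 0 for miR-155 over the cluster, and 41 and 0 for the cluster over the empty vector. No paired analysis was possible because of unshared numbers for miR-125a and the empty vector of dataset B.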

Other observations

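The probes whose pattern over the 8 arrays of dataset A was most like that of each called target are given as a description. The points share the arrays, among them both miR-155 arrays. For Tab2 they were Tmem106a (Pearson r = 0.993, miR-155 minus empty vector -0.80 on the log2 scale), Hdhd2 (r = 0.973, -0.78) and Ppp1cb, a catalytic subunit of protein phosphatase 1 (r = 0.958, -0.75). For Tspan14 they were Rassf8 (r = 0.981, -0.88), Scnn1a, a subunit of the epithelial sodium channel (r = 0.975, -0.76), and Cfp, properdin of the alternative complement pathway (r = 0.964, -0.60). For Il13ra1 they were Man1b1, a mannosidase of the endoplasmic reticulum (r = 0.958, -0.48), Zfand3 (r = 0.953, -0.35) and Thbd, thrombomodulin (r = 0.952, -0.67). The probes most like Tab2 differed by -0.18 to -0.15 with the cluster, and those most like Tspan14 by 0.05 to 0.18.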
